A study of Mus musculus with 32 samples.

Results

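Ptgds, Dcn, Bgn, Slc22a6, Serpinf1, Prelp, Igf2, Igfbp2, Lum and Ogn, 10 genes known from the fibroblasts and coverings of the brain, were followed across 8 groups of mouse midbrain and medulla samples. All probe sets annotated with exactly 1 of these symbols were taken, which gave 18 of the 22626 probe sets tested and covered all 10 genes. The rule for taking probe sets uses no measured value, but the genes were chosen with earlier results of these data known. A probe set is a group of short probes on the array that together read 1 transcript, and 7 of the genes had more than 1.

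Control mice and mice deficient in Cckbr, the receptor for the neuropeptide cholecystokinin that predominates in the brain (written KO), had either a sham operation or a chronic constriction injury (CCI, a model of neuropathic pain in which a peripheral nerve is loosely tied). There were 4 mice in each of the 4 combinations, and the midbrain and the medulla of each mouse were hybridised separately, giving 32 arrays in 8 groups of 4. The labels do not say that each array was a separate extraction, so that p-values measure the spread between these samples. The labels state no strain, sex, age or time after operation and no further allele, and they do not say how the receptor gene was inactivated. Cckbr itself read 122 to 200.2 in the 16 control samples and -1.5 to 24.1 in the 16 KO samples.

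The coverings of the brain, the meninges, are sheets of fibroblasts and vessels in a collagen matrix. Dcn, Bgn, Lum, Prelp and Ogn encode small leucine-rich proteoglycans, secreted proteins that bind collagen fibrils and growth factors. Igf2 is an insulin-like growth factor made by meninges, vessels and choroid plexus, the epithelium that secretes cerebrospinal fluid, and Igfbp2 is a secreted protein that binds it. Ptgds makes prostaglandin D2 and is released into the cerebrospinal fluid, Serpinf1 encodes the anti-angiogenic pigment epithelium-derived factor, and Slc22a6 is an organic anion transporter. In dissected tissue a different number of meningeal cells and a different amount of RNA per cell cannot be told apart.

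The DNA before the start of 5 of these genes is shown because they carried the clearest regional differences or the closest co-variation below. The letters are the 250 bases before each annotated start in RefSeq (GRCm38.p6), read 5′ to 3′ on the gene's strand. Capitals mark matches on either strand to CCAAT, to GGGCGG or to the E-box CANNTG. The regions are chr2:25469750-25469999 (minus strand) for Ptgds, chr19:8617746-8617995 (plus) for Slc22a6, chr11:75422624-75422873 (minus) for Serpinf1, chr1:72824230-72824479 (plus, the upstream of 2 annotated starts) for Igfbp2 and chr7:142657497-142657746 (minus, the most downstream of 4 starts) for Igf2.
Ptgds: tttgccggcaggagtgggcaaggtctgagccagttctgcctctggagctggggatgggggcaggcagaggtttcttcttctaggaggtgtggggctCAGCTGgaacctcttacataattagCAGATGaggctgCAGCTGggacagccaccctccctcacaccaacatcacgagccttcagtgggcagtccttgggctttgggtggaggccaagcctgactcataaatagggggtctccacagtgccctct
Slc22a6: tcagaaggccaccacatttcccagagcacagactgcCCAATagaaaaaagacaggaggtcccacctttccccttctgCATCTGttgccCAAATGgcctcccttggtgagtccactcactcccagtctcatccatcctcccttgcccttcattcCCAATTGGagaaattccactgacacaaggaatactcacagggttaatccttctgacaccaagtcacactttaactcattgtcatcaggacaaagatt
Serpinf1: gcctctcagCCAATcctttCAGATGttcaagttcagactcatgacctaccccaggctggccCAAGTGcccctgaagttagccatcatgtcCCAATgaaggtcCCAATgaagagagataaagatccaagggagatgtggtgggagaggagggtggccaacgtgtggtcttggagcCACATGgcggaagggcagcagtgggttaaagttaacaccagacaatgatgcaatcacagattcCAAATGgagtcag
Igfbp2: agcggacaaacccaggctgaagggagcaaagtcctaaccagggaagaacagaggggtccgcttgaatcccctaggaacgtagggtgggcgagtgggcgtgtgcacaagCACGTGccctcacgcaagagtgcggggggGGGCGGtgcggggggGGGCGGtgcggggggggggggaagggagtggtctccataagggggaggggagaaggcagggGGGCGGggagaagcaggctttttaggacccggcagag
Igf2: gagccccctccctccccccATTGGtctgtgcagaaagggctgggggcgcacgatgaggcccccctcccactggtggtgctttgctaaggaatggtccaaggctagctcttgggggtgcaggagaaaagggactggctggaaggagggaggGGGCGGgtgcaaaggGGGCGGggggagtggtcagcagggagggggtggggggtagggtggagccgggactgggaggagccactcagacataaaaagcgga

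Slc22a6 and Serpinf1 each held 3 CCAAT matches, 1 E-box of Slc22a6 lying within 2 overlapping CCAAT matches at 97 to 90 bases before the start. Igfbp2 held 3 GGGCGG matches and the shown Igf2 start held 2, whereas the Ptgds region held only E-boxes, 3 of them. Over the 32851 promoter regions of the same length, 33.8% held CCAAT, 32.7% held GGGCGG and 66.2% held CANNTG. None of the 5 regions held TATAAA, which 12.4% of all regions held. Entries were matched for 8 of the 10 genes, and Dcn and Lum were not among them. Several of the genes lie beside relatives on the chromosome. Dcn and Lum are neighbours on chromosome 10, followed by the proteoglycan genes Kera and Epyc, while Ogn follows Omd on chromosome 13, Prelp lies between Optc and Fmod on chromosome 1, Igfbp2 lies next to Igfbp5, and Slc22a6 next to its paralogue Slc22a8.

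Array medians lay between 91.1 and 100.1 intensity units, within a group the arrays had correlations of 0.962 to 0.989, and no 2 arrays were identical. Dissection was checked with regional genes: 10 of 11 measured Hox genes of the medulla list were lower in midbrain, and 7 of 10 midbrain markers were higher. The midbrain marker Aldh1a1 was called lower, by -0.16. The 11 Hox genes summed to 1154 to 2623 in the 16 medulla samples and to 130 to 345 in the 16 midbrain samples, so the medulla samples were uneven. Choroid plexus genes differed most between samples of the same kind. The 13 measured genes of that list summed to 1153 to 12015 in the 16 medulla samples and to 516 to 5573 in the 16 midbrain samples, and the choroid plexus gene Ttr read 936 in the medulla of control sham mouse 4 and 1485 in that of KO CCI mouse 1 against 6897 or more in the other 14. The sample descriptions hold a numeric code, which is not stated to be a batch. It is here called code A for replicates 1 and 2 and code B for replicates 3 and 4 of every group, except that control sham 1 carried its own, code C.

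The level of Ptgds was among the highest on the array and that of Slc22a6 among the low ones. The brighter Ptgds probe set had a mean over all arrays of 5697, above 99.8% of probe sets, and that of Slc22a6 a mean of 39.9, above 29.3%. The second probe sets of Slc22a6 and Igf2 read 7.06 and 17.3 on average, near the bottom of the scale, so that both genes rest on their brighter probe set. Within groups, the log2 level of Ogn varied the most, with a standard deviation (SD) of 0.58 for its dimmer probe set in medulla, larger than that of 98.8% of probe sets. Lum, Igf2 and Igfbp2 also ranked above 96.0% of probe sets in medulla, with SDs of 0.48, 0.47 and 0.45, whereas the brighter Ptgds probe set had an SD of 0.09 there and of 0.04 in midbrain. The dimmer Ptgds probe set varied more, with SDs of 0.19 and 0.14, and 47.1% of probe sets had a smaller SD than it in medulla. Dcn had an SD of 0.39 in medulla, above 91.9% of probe sets. The matrix genes were not alike in this, since the 3 Bgn probe sets had medulla SDs of 0.24 to 0.30 and the 2 of Prelp 0.22 and 0.18, against a median of 0.20 over all probe sets.

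**Figure D1:**
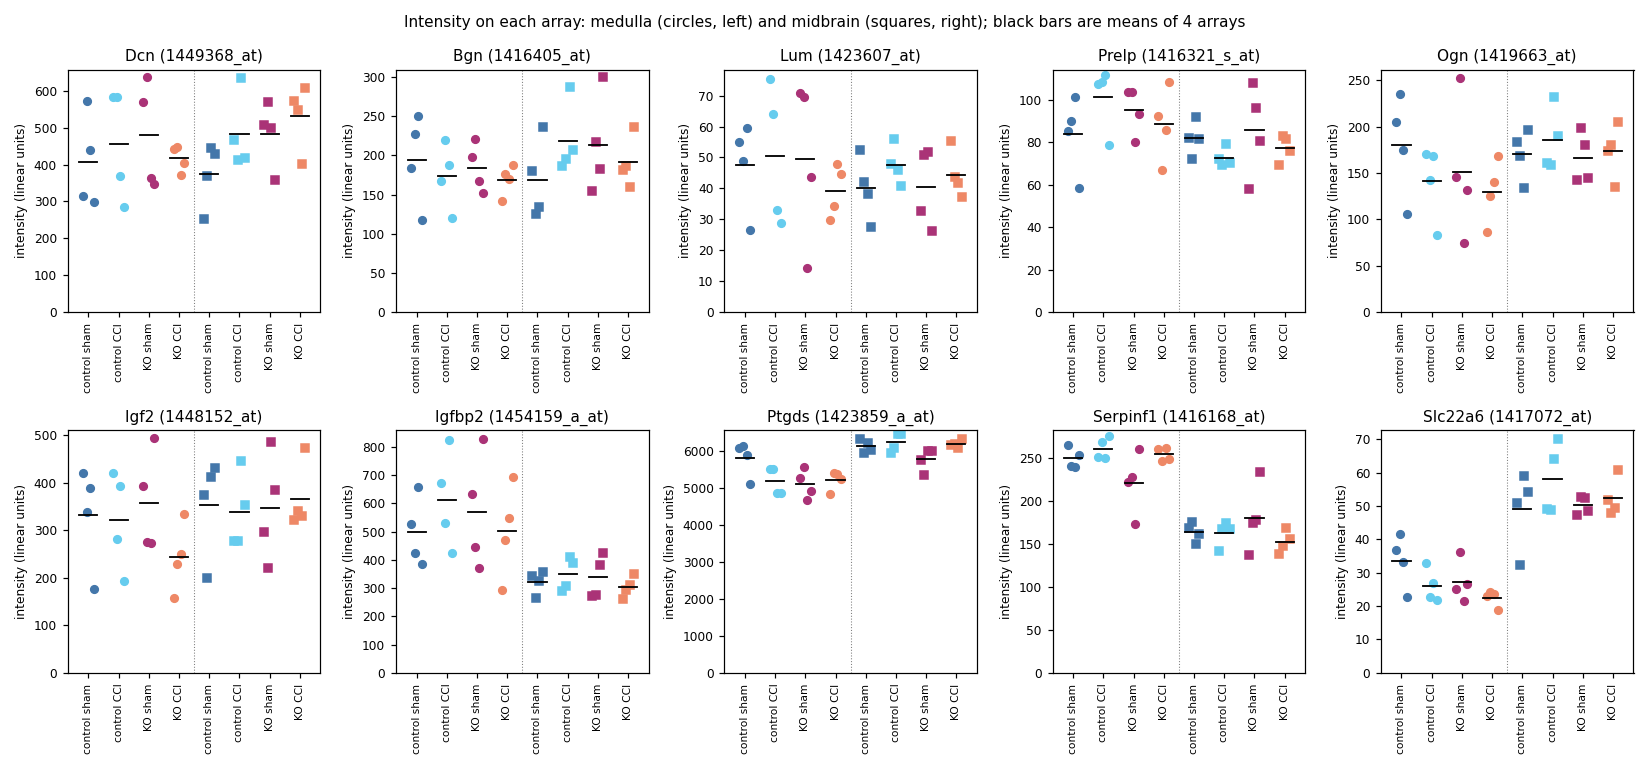
Intensity in linear units on the vertical axis for the brightest probe set of each gene, 1 point per array, with medulla groups on the left and midbrain groups on the right of each panel; black bars are means of 4 arrays. Slc22a6 and Ptgds sit higher and Serpinf1 and Igfbp2 lower in midbrain, while sham, CCI, control and KO points overlap within each region; Slc22a6 averaged 27.4 over the medulla samples and 52.4 over the midbrain samples.

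The clearest pattern was regional. Of the 18 probe sets, 8 differed between midbrain and medulla at an adjusted p under 0.05 by limma, against 21.5% of all probe sets tested, and they split evenly. Slc22a6, Ptgds and 1 probe set of Ogn were higher in midbrain, and Serpinf1, Igfbp2 and 1 probe set of Prelp were lower, with 10.5% of all probe sets called higher and 11.0% called lower. Dcn, Lum, Bgn and Igf2 had no probe set past the threshold. Within code A alone 4 of the 18 were called, and within code B 7. The share of all probe sets called is not given for these or the other settings below. Such counts are therefore no result about these genes. With calls in both directions over all arrays, the genes of this set did not move as a block between the regions. Fold changes in this text are on the scale of intensity plus 16, which understates the change of dim genes.

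Among the matrix proteoglycans, Dcn read 284 to 638 with a median of 422 in the 16 medulla samples and 253 to 635 with a median of 456 in the 16 midbrain samples. The ranges nearly coincided. The log2 difference, midbrain minus medulla, was 0.10 with a 95% interval of -0.14 to 0.34. Lum, which lies beside Dcn and organises collagen fibrils with it, read 14.2 to 75.3 with a median of 46.2 in medulla and 26.3 to 56.0 with a median of 42.9 in midbrain, with a log2 difference of -0.04 (interval -0.30 to 0.23). The 3 Bgn probe sets gave 0.12, -0.12 and -0.05, and every one of their intervals included 0.

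Ogn, also called osteoglycin or mimecan, was higher in midbrain by 1 of its 2 probe sets. With the dimmer one it read 22.9 to 143 with a median of 69.9 in medulla and 65.7 to 160.4 with a median of 127 in midbrain. Midbrain was the higher region in 13 of 16 mice, although the ranges overlapped. The log2 difference was 0.57 (SE 0.16, 1.49-fold, adjusted p from limma 0.0081). For Ogn this was 0.19 within code A (adjusted p from limma 0.59) and 0.85 within code B (0.018), and 0.41 without control sham 4 and KO CCI 1 (adjusted p from limma 0.071). The brighter one gave 0.24 (SE 0.13) and an adjusted p from limma of 0.20. The deviations of the 2 probe sets from their group means correlated at 0.79 in medulla and at 0.15 in midbrain (16 arrays each, as a description).

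Prelp, a proteoglycan that anchors basement membranes to connective tissue, went the other way. With the dimmer probe set it read 48.2 to 98.4 with a median of 77.5 in medulla and 43.997 to 79.8 with a median of 54.1 in midbrain, lower in midbrain in 15 of 16 mice. Its log2 difference was -0.32 (SE 0.06, adjusted p from limma 1.6e-04). Within code A it was -0.27 (adjusted p from limma 0.061) and within code B -0.33 (0.035). The brighter Prelp probe set gave -0.18 (SE 0.07, adjusted p from limma 0.089) and was lower in 12 of 16 mice. With the mouse as a random block that Prelp difference passed, at an adjusted p from limma of 0.045. The 2 Prelp probe sets did not track each other within groups, with r of -0.05 in medulla and -0.17 in midbrain.

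Igf2 and its binding protein differed in their regional pattern. Igf2, by its brighter probe set, read 158 to 493 with a median of 308 in medulla and 199 to 485 with a median of 346 in midbrain, a log2 difference of 0.18 with an interval of -0.11 to 0.48. Igfbp2 read 293 to 829.7 with a median of 528 in medulla and 261 to 425 with a median of 318 in midbrain. It was lower in midbrain in 15 of 16 mice, and the upper part of the medulla range lay well beyond any midbrain sample. The log2 difference of Igfbp2 was -0.67 (SE 0.12, a 1.59-fold lower level, adjusted p from limma 1.12e-04). Within code A it was -0.73 (adjusted p from limma 0.016) and within code B -0.61 (0.070). Choroid plexus genes differed in the same direction as Igfbp2: 11 of 13 were lower in midbrain and 1 (Otx2, which also marks midbrain) higher, with a median log2 difference of -1.49, Ttr at -2.86. Folr1 and Kl, 2 choroid plexus genes, read 11.4 to 32.4 and 5.8 to 39.1 in midbrain, against up to 324 and 392 in medulla. Their part in the Igfbp2 difference was not tested. Without both regions of the 2 mice low in Ttr (control sham 4 and KO CCI 1), the count of probe sets called was 7. The share of all probe sets called in that setting is not given, so this count is no result about these genes.

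Slc22a6 showed the largest rise toward midbrain in fold. With the brighter probe set it read 18.9 to 41.7 with a median of 24.7 in medulla and 32.2 to 70.1 with a median of 51.4 in midbrain. Of the midbrain samples, control sham 2 (32.2) lay within the medulla range, and midbrain was higher in 15 of 16 mice. The log2 difference was 0.66 (SE 0.07, 1.58-fold, adjusted p from limma 1.83e-08). Its chromosomal neighbour and paralogue Slc22a8 was also higher, by 0.30 (SE 0.07).

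Ptgds rose by less, and only its brighter probe set had little spread. The brighter probe set read 4664 to 6136 with a median of 5314 in medulla and 5350.4 to 6454 with a median of 6066 in midbrain. Midbrain was higher in 14 of 16 mice by this probe set and in 15 of 16 by the dimmer one. The log2 differences were 0.22 (SE 0.03, 1.16-fold, adjusted p from limma 4.64e-06) and 0.40 (SE 0.06, 1.32-fold). Within code A the Ptgds differences were 0.13 and 0.20 and did not pass (adjusted p from limma 0.12 and 0.13), and within code B they were 0.31 and 0.55 and passed. Other genes of prostaglandin D2 synthesis, reception and breakdown were split, 2 of 9 measured being higher (Ptgdr2, the second receptor, by 0.53, and Ptgs2, the inducible cyclooxygenase, by 0.24) and 2 lower (Pla2g4a, which releases the fatty acid precursor, by -0.49, and Hpgd, which inactivates prostaglandins, by -0.30).

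Serpinf1 was lower in midbrain by both probe sets. The brighter read 173 to 275 with a median of 250.01 in medulla and 136 to 233 with a median of 167 in midbrain. Midbrain was lower in 15 of 16 mice. The exception joined the lowest medulla value, 173 in the sample titled KO sham 3, with the highest midbrain value, 233 in the sample titled KO sham 4. Regions were joined by consecutive array numbers, which disagree with the title numbers for KO sham 3 and 4 only. The log2 differences were -0.54 (SE 0.05, 1.45-fold lower, adjusted p from limma 7.44e-09) and -0.44 (SE 0.06, adjusted p from limma 3.4e-06). Genes of oligodendrocytes (7 of 9) and astrocytes (6 of 10, with 1, Slc1a3, higher by 0.39) were also lower in midbrain, and the part of either cell type in the Serpinf1 difference was not tested.

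**Figure D2:**
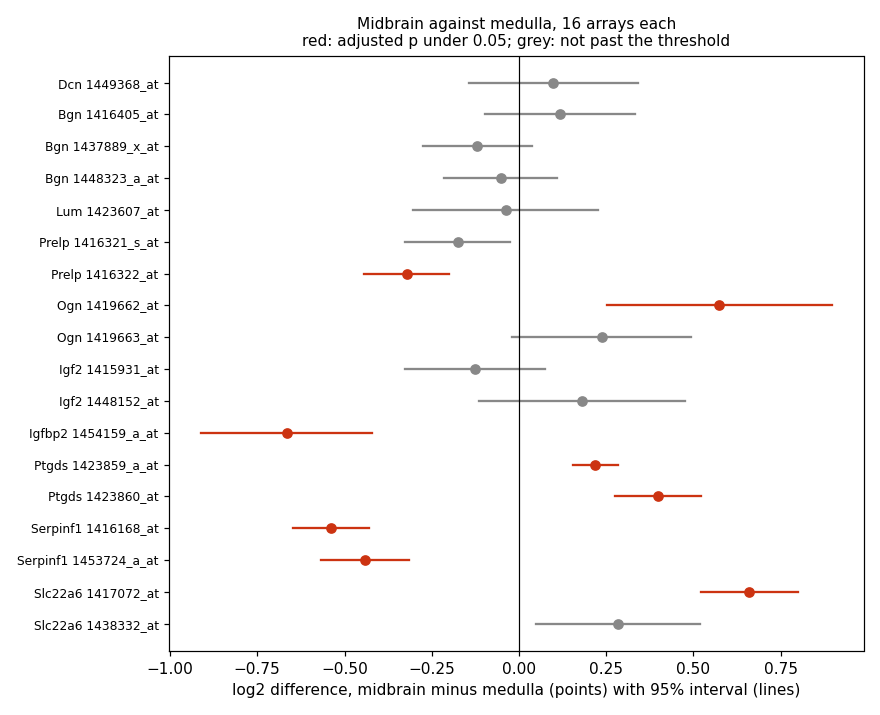
Log2 difference, midbrain minus medulla, on the horizontal axis for the 18 probe sets, as points with 95% intervals, from 16 arrays of each region. The 8 probe sets past the threshold (red) lie on both sides of 0, from -0.67 for Igfbp2 to 0.66 for Slc22a6.

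Other fibroblast and meningeal genes leaned toward midbrain. Of 36 measured, 18 were called higher and 5 lower, with a median log2 difference of 0.20 against 0.01 over all probe sets. The largest rises were in Ccn3, a secreted matricellular protein (1.07, SE 0.17), Fmod, the proteoglycan next to Prelp (0.87, SE 0.16), and Slc6a20a, a proline transporter (0.68, SE 0.11). Aldh1a2, which makes retinoic acid, was higher by 0.64 and Crabp2, which binds it, by 0.62. Of the listed forkhead transcription factors, Foxc2 (0.59) and Foxd1 (0.51) were called higher, and Foxc1 gave 0.12 (adjusted p from limma 0.17). The 5 lower genes included Anxa2 (-0.63), Emp1 (-0.34), S100a6 (-0.33) and Col1a2 (-0.29), and Col1a1 gave 0.15 without passing the threshold. Of the 7 other measured members of the proteoglycan family, Fmod and Omd (0.40) were higher, and Kera, Epyc, Aspn, Optc and Chad were not called. In the insulin-like growth factor system, Igfbp5, beside Igfbp2 on the chromosome, was higher by 0.66 (SE 0.09), and Igf1 by 0.43, while Igfbp7 gave -0.42 and was lower, and the other 9 of 12 were not called. Igfbp2 and its neighbour Igfbp5 thus differed in opposite directions between the regions.

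Genotype produced no call in these genes. None of the 18 probe sets passed the threshold in medulla or midbrain when KO was compared with control over both operations, where limma called 12 (0.0530%) and 7 (0.0309%) of all probe sets. At an unadjusted p under 0.05 there were 0 in medulla and 3 in midbrain, with 3.36% and 7.49% of all probe sets at that level. In midbrain, KO minus control was 0.26 for the second brightest Bgn probe set, 0.20 for the dimmer Prelp and 0.31 for the dim Igf2 probe set, with adjusted p from limma of 0.57, 0.61 and 0.63. The 18 differences lay between -0.23 and 0.12 in medulla and between -0.08 and 0.31 in midbrain. Ogn had the widest interval in medulla, from -0.47 to 0.65 for its dimmer probe set, while for the brighter Ptgds probe set it ran from -0.21 to 0.03.

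In sham mice alone limma called 3 probe sets (0.0133%) in each region and none of these genes. In CCI mice it called 1 (0.00442%) in medulla and 2 (0.00884%) in midbrain, again none of these. At an unadjusted p under 0.05 there were 2 of the 18 in sham medulla, with 3.81% of all probe sets at that level. The largest difference there was 0.47, for the dimmer Prelp probe set. It read 53.5 to 70.8 in control and 82.4 to 98.4 in KO mice, without overlap. The lowest adjusted p from limma among the 18 in sham medulla was 0.90. Ptgds in medulla had the highest group mean in control sham mice, 5800.1 ± 474 (SD, n = 4), with single values of 6079, 6136, 5877 and 5108. The other 3 medulla groups averaged 5098 to 5209, and their single values ran from 4664 to 5564, overlapping the lowest control sham value. KO minus control in sham medulla was -0.18 (SE 0.08, adjusted p from limma 0.997). The 2 dimmer Bgn probe sets pointed in opposite directions in the regions, with KO minus control of -0.23 and -0.18 in medulla and 0.26 and 0.20 in midbrain. The difference between the regional genotype effects was 0.49 (SE 0.15) and 0.38 (SE 0.16), with adjusted p of 0.9997 from limma, which called 0 probe sets for that interaction and had 3.80% at an unadjusted p under 0.05.

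CCI produced no call in these genes in any of the 4 settings, and limma called 0 of all probe sets in each (0%). At an unadjusted p under 0.05 there were 1, 2, 0 and 1 of the 18 in control medulla, KO medulla, control midbrain and KO midbrain, where 2.80%, 4.24%, 3.0% and 8.23% of all probe sets lay at that level. The unadjusted cases were all Prelp and Serpinf1. For scale, intervals for the CCI effect on Dcn in control mice ran from -0.42 to 0.65 in medulla and from -0.10 to 0.77 in midbrain.

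Prelp by its dimmer probe set gave the smallest unadjusted p of the genotype by CCI interactions. In medulla it read 70.8, 59.4, 66.02 and 53.5 in control sham mice and 81.6, 74.6, 92.9 and 79.97 in control CCI mice, every CCI value above every sham value. In KO mice the order was turned, mostly in code B. Code A samples read 82.4 and 89.0 after sham and 74.99 and 85.3 after CCI, where 1 CCI value overlapped the sham range. Code B samples read 98.4 and 97.8 after sham and 48.2 and 63.3 after CCI. CCI minus sham was 0.33 (SE 0.12) in control and -0.37 (SE 0.12) in KO mice. Over 29 alternative settings the KO value ran from -0.69 to -0.05. The interaction was -0.70 (SE 0.17) with an unadjusted p of 0.0011 and an adjusted p of 0.9997 from limma, which called 0 probe sets for the interaction and had 2.67% at an unadjusted p under 0.05. The other Prelp probe set gave -0.34 (SE 0.21), and in midbrain the dimmer one read 43.997 to 50.5 in control CCI against 49.4 to 59.2 in control sham mice.

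Serpinf1 by its dimmer probe set was the other gene with low unadjusted p after CCI. In KO medulla it read 83.4, 84.2, 69.6 and 73.1 after sham and 103, 116, 91.7 and 106 after CCI, with no overlap. CCI minus sham there was 0.36 (SE 0.11, adjusted p from limma 0.99), and in KO midbrain 0.29 (SE 0.14, adjusted p from limma 0.60). The brighter Serpinf1 probe set gave 0.16 in KO medulla and -0.21 in KO midbrain, and the 2 probe sets correlated within groups at only 0.14 in medulla and 0.32 in midbrain. In control mice the dimmer probe set differed by -0.03 in medulla.

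**Figure D3:**
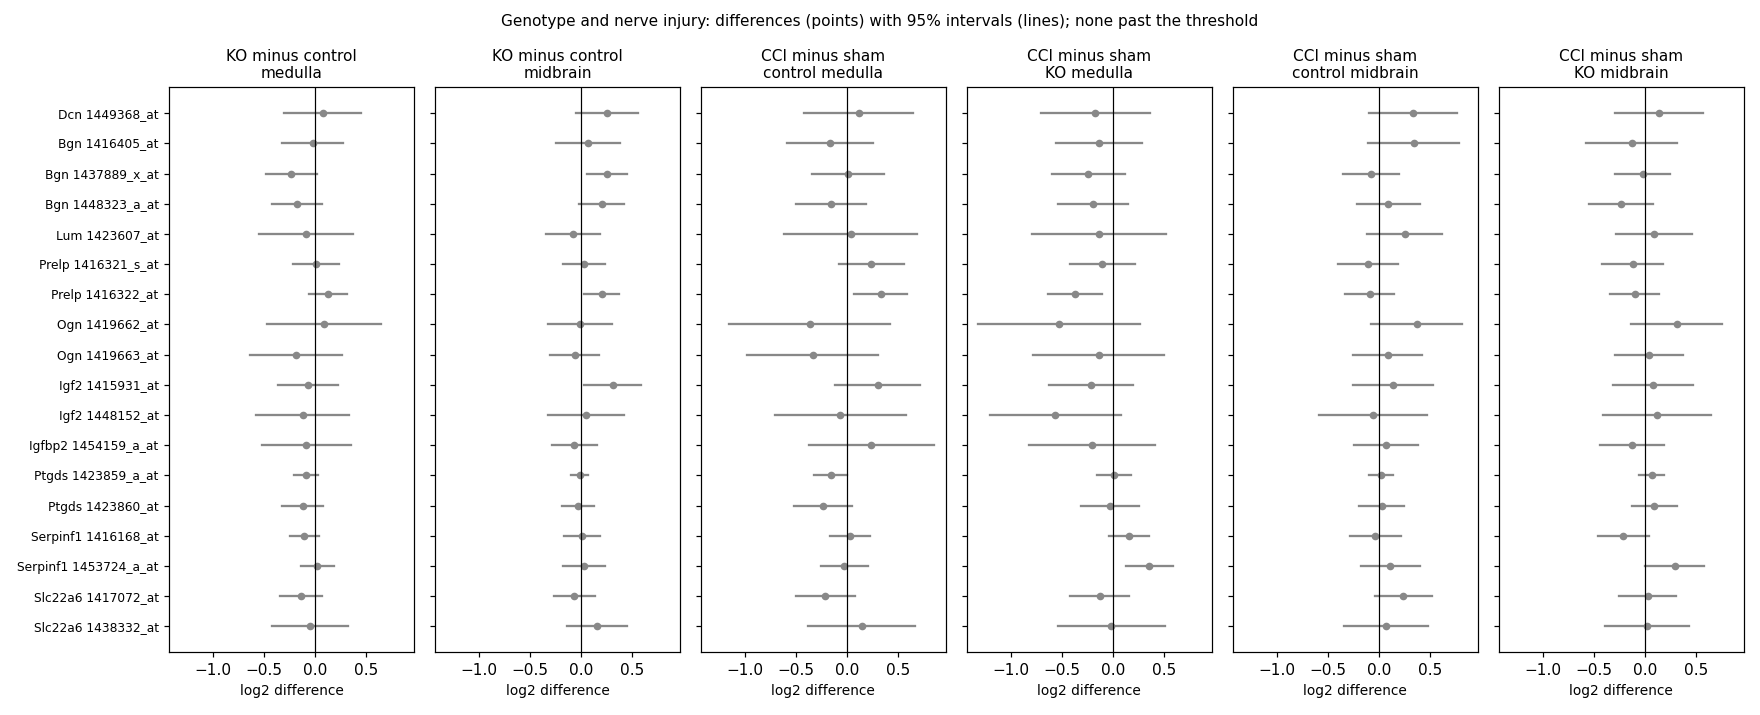
Log2 differences with 95% intervals for the 18 probe sets: KO minus control over both operations in each region (16 arrays) and CCI minus sham in each genotype and region (4 arrays against 4). No difference passed the threshold, and the interval of the dimmer Ogn probe set is the widest in medulla, reaching from -1.32 to 0.26 after CCI in KO mice.

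CCI effects did not differ between regions past the threshold either (limma called 0, with 2.16% of probe sets at an unadjusted p under 0.05). The dimmer Ogn probe set was at 0.79 (SE 0.31), Slc22a6 at 0.30 (SE 0.14) and the brighter Serpinf1 at -0.22 (SE 0.11), each with an adjusted p from limma of 0.9999. For Ogn the group means were 89.1 ± 40.8 after sham and 69.0 ± 42.2 after CCI in control medulla, 102.7 ± 25.2 and 135 ± 7.35 in control midbrain (SD, n = 4). In KO mice they were 98.3 ± 38.7 after sham and 62.02 ± 20.1 after CCI in medulla, and 103.9 ± 28.3 and 137.9 ± 39.96 in midbrain (SD, n = 4). In both genotypes the mean after CCI was lower in medulla and higher in midbrain, and the sham and CCI values overlapped in each of the 4 settings. None of the lists of related genes had a member called for genotype, CCI or an interaction.

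The genes also varied from mouse to mouse within groups. In medulla, after removal of group means, 40 of the 45 pairs of genes (brightest probe set each) correlated positively, with a median r of 0.52. Over all pairs of measured genes the median was 0.00, and 7.19% of pairs exceeded 0.52. Because the genes were chosen with earlier results of these data known, this comparison and the tests that follow are descriptive. By a permutation test with both tails, 18 pairs passed an adjusted p of 0.05 over the 45, and 12 did by Spearman's rho. Ogn took part in 7 of the 18, Ptgds, Bgn and Lum in 5 each, and Serpinf1 in none. The proteoglycans Dcn, Bgn, Lum, Prelp and Ogn formed a block in which 9 of 10 pairs passed, with Bgn and Prelp at r = 0.75. Bgn is read here by its brightest probe set, which correlated at 0.03 and -0.07 with the other 2 in medulla, while those 2 correlated at 0.82 with each other.

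The block rested partly on a few samples in which the genes were low together. In the medulla of KO sham mouse 3 all 10 genes lay below their group mean, and in those of control sham 4 and control CCI 4 it was 9 of 10. Ogn (brighter probe set) read 74.2 in KO sham 3 where its group otherwise spanned 132 to 253, 106 in control sham 4 against 175 to 235, and 83.3 in control CCI 4 against 143 to 171. Without control sham medulla 4 the number of pairs that passed was 6, without control CCI medulla 4 it was 7, and without control sham 4 and KO CCI 1 it was 5. Within code A (7 arrays) and code B (8 arrays), in that order, Bgn and Prelp gave r = -0.60 and 0.95, and Dcn and Ogn 0.84 and 0.79. Within a code most groups hold 2 arrays, whose deviations mirror each other, so these values rest on few independent differences. The permutation test shuffles arrays as if they were independent, so within a code only r is given, as a description.

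**Figure D4:**
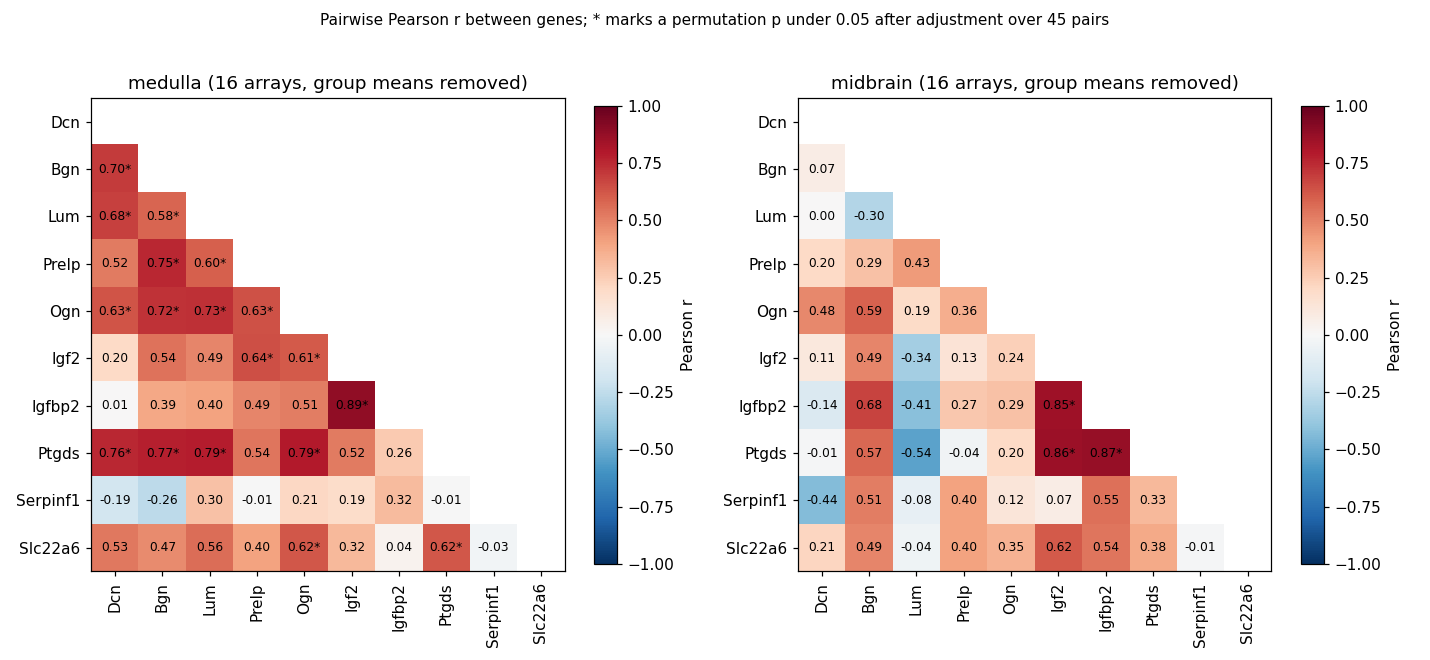
Pearson r between each pair of the 10 genes after removal of group means, in 16 medulla arrays (left) and 16 midbrain arrays (right); colour runs from blue (-1) to red (1) and a star marks an adjusted permutation p under 0.05. In medulla 18 of 45 pairs are starred, most of them among the proteoglycans and Ptgds, and in midbrain only the 3 pairs of Ptgds, Igf2 and Igfbp2.

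Igf2 and Igfbp2 formed the tightest pair in medulla, with r = 0.89 and rho = 0.86 over 16 arrays (permutation p 3e-05, adjusted p 0.0014). Without the 2 most extreme arrays r was 0.91. Within code A it was 0.95 (7 arrays) and within code B 0.97 (8 arrays), as a description. In control CCI mice, for example, Igf2 read 420.01, 282, 393 and 192 and Igfbp2 671, 531, 824 and 423. In KO sham mice Igf2 read 392, 275, 273 and 493 and Igfbp2 633, 445, 372 and 829.7. The samples high in the growth factor were those high in its binding protein.

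In medulla these 2 genes varied with the choroid plexus genes. In relations chosen after the data were seen, against the mean log2 level of the 13 choroid plexus genes, group means removed, Igf2 gave r = 0.92 and Igfbp2 r = 0.93 (rho 0.89 and 0.95; adjusted permutation p 2.7e-04 and 2.0e-04 over 40 relations, 10 genes by 2 lists by 2 regions). Within codes A and B the values were 0.95 and 0.98 for Igf2 and 0.996 and 0.95 for Igfbp2, as a description. Without the 2 mice low in Ttr they were 0.86 for Igf2 and 0.95 for Igfbp2. Against the mean of the 36 other meningeal and fibroblast genes, Igf2 gave 0.45 and Igfbp2 0.12 in medulla, neither past the threshold; the difference between these correlations was not tested. In KO CCI medulla, Folr1, a folate receptor of choroid plexus, read 15.9, 107, 141 and 228 where Igf2 read 158, 229.5, 249.9 and 334.

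Ptgds in medulla varied with the other meningeal genes. Its r was 0.94 against the other meningeal genes (rho 0.95, adjusted permutation p 2.0e-04) and 0.52 against the choroid plexus genes (adjusted permutation p 0.079). Dcn gave 0.79 and Bgn 0.83 against the meningeal list, and both stayed past the threshold with Ptgds when the 2 mice low in Ttr were left out, at 0.83 and 0.70 beside 0.93 for Ptgds. Lum, Ogn, Prelp and Slc22a6, at 0.67, 0.71, 0.64 and 0.64, passed over all 16 arrays but not without those mice. Bgn, Lum, Prelp and Ogn also passed against the choroid plexus list, at 0.62, 0.60, 0.64 and 0.68. Serpinf1 passed against neither, at -0.22 for the meningeal and 0.22 for the choroid plexus genes. Without the 2 mice low in Ttr, 3 genes passed against each list. In all, 7 of the 10 genes passed against the meningeal list and 6 against the choroid plexus list in medulla. As a description, Ptgds against the meningeal list gave 0.65 within code A and 0.91 within code B. Against the choroid plexus list Ptgds gave 0.69 within code A and 0.81 within code B. Whether Ptgds followed 1 list more closely than the other was not tested.

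In midbrain no gene passed against the choroid plexus list (highest r 0.45, for Prelp), and 6 passed against the meningeal list: Igf2 (0.78), Bgn (0.70), Slc22a6 (0.70), Igfbp2 (0.64), Ptgds (0.64) and Ogn (0.60). That count was 4 without control sham 4 and KO CCI 1. Only 3 pairs of the 45 passed, among Ptgds, Igf2 and Igfbp2, with r of 0.86, 0.87 and 0.85 (adjusted permutation p 3e-04 for each), and the median r was 0.27, which 23.0% of all gene pairs exceeded. Those pairs went along with the array code. Igfbp2 in midbrain read 261 to 306 in the 7 arrays of code A and 311 to 425 in the 8 of code B, with no overlap, and Igf2 199 to 339.7 and 329 to 485. In a fit added after the data were seen, code B was higher by 0.36 for Igfbp2 (SE 0.05, adjusted p from limma 0.018, with 0.513% of all probe sets called) and by 0.56 for Igf2 (SE 0.12, adjusted p from limma 0.060). Within code A Ptgds and Igfbp2 gave r = -0.54 and Igf2 and Igfbp2 -0.06, within code B 0.90 and 0.55, so that these 2 relations were not of the same sign in both codes. Ptgds and Igf2 gave 0.85 within code A and 0.58 within code B, positive in both, as a description on few independent differences.

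Dcn moved with the code in medulla instead. It read 443 to 638 in the 7 arrays of code A and 284 to 439 in the 8 arrays of code B, without overlap. The log2 difference was -0.58 (SE 0.11, adjusted p from limma 0.024, with 1.97% of all probe sets called), the only one of the 18 past the threshold there. In midbrain the Dcn difference between codes was -0.06. The test of whether a code difference varied between regions called 0 probe sets by limma.

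**Figure D5:**
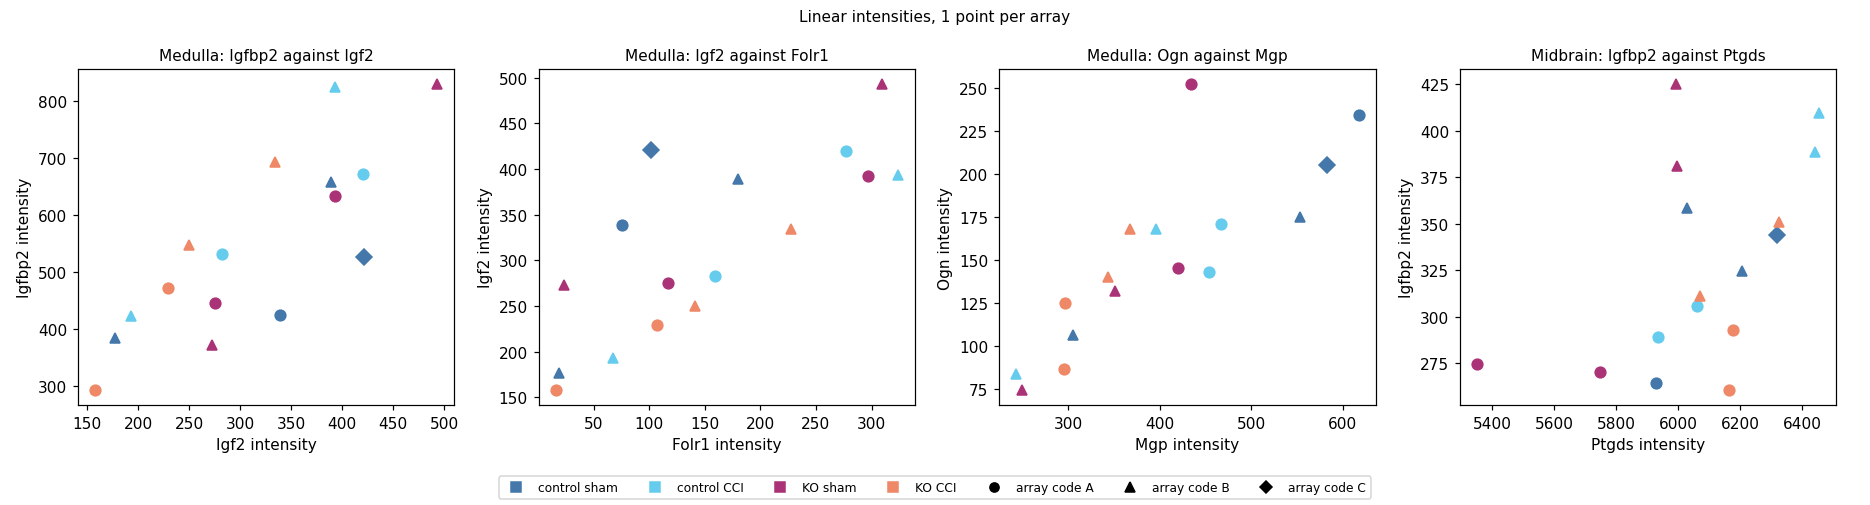
Linear intensities of pairs of genes, 1 point per array, coloured by group and shaped by array code: Igfbp2 against Igf2, Igf2 against Folr1 and Ogn against Mgp in the 16 medulla samples, and Igfbp2 against Ptgds in the 16 midbrain samples. In medulla the points rise together across codes, and in midbrain the triangles of code B lie above the circles of code A on the Igfbp2 axis (311 and higher against 306 and lower). Mgp ranked first by likeness on these arrays to the genes' mean profile, which includes Ogn, so the rise in its panel follows from that choice.

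The medulla and midbrain of the same mouse were then set side by side for each gene. Of the 10 genes only Ptgds passed, and its relation was inverse: r = -0.79 and rho = -0.81 over 16 mice (permutation p 3.7e-04, adjusted p 0.0037 over the 10), and -0.79 without the 2 most extreme mice. Medulla samples of code B averaged lower and midbrain samples of code B higher for Ptgds (log2 -0.10 and 0.07, neither past the threshold). With the code removed as well as the group, r was -0.59 (15 mice, adjusted permutation p 0.19), and within the codes -0.31 and -0.42. The inverse relation therefore no longer passed once the code was taken into account.

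Genes outside the 10 whose mean-removed profile was most like the average of the 10 were ranked among 8861 genes in each region. In medulla they were Mgp, the matrix Gla protein of fibroblasts and vessels (r = 0.98), Gpx8 (0.96), C1galt1c1 (0.96), Cetn2 (0.91), Anxa1 (0.91), Chac2 (0.90), Tgfbi (0.90), Matn2 (0.89), Bmp6 (0.88) and Pdgfrb (0.88), over 16 arrays. Mgp read 582, 617, 553 and 305 in control sham medulla, low in the same mouse 4 as the members, which its choice by likeness on these arrays favours. In midbrain the list began with Pf4 (0.93), Nnat (0.86), Mmp17 (0.84), Polk (0.84) and Nfib (0.83), and shared no gene with the medulla list among the 10 ranked in each.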

How the data were processed

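RNA of the midbrain and medulla was measured on 1-colour Affymetrix mouse arrays, 32 in all. Per the labels' protocols, total RNA was extracted with TRIzol and 4 ug was labelled as cRNA. The authors deposited 1 table of intensity values on a linear scale, background-subtracted and in part below 0 (2.15% of values at or below 0). Its software and settings are not given in the sources used here. Depth does not apply to arrays, and their number limits the precision.

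Values below 0 were set to 0, 16 was added, log2 was taken and arrays were quantile normalised (R 4.3.3, limma 3.58.1). Printed intensities are the deposited values. Control probe sets were left out. Of 22626 probe sets, 20380 had 1 symbol, 691 several and 1555 none in the platform annotation. Genotype, CCI and their interaction were fitted with limma within each region (16 arrays, 4 group means), and regions over all 32 arrays. P-values were adjusted over all probe sets by Benjamini-Hochberg, with a threshold of 0.05. For lists and correlations a gene was read by its brightest probe set. Correlations used log2 values with group means removed and permutation tests of 100000 resamples (Python 3.11.15). The fits were tried on simulated data with known differences. The correlation test was tried on simulated pairs of 16 independent values, without groups or removal of group means. It therefore does not show how well the permutation p holds for deviations from group means, which are not independent.

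The genes described by name are the 10 members, the listed genes with the largest called differences and the 10 genes most like the members' mean profile. The members and lists were chosen with earlier results of these data known. The regions of a mouse were joined by array number. Deviations from group means correlated at 0.171 on average between regions of the same mouse, with 10 of 16 above 0.1. Between different mice of a group the average was -0.0567, with 8 of 48 above 0.1. Deviations within a group sum to 0, so the second average follows largely from the first. Alternatives were other pseudocounts (1 and 64), normalisations, filters, blocks, array codes and leaving out samples.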

Additional observations from a re-analysis of the deposited data

Results flagged for a closer look

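In 7 of 144 groups of 4 samples, 1 sample lay apart from the other 3 by Dixon's criterion for the gap to the nearest value over the range, where chance flags about 1 in 20 groups. High samples were Bgn (brightest probe set) at 287 in midbrain of control CCI 3, Slc22a6 (brighter) at 32.8 in medulla of control CCI 1 and the dim Igf2 probe set at 23.5 in midbrain of KO sham 2. Low samples were Serpinf1 (dimmer) at 39.1 in midbrain of control sham 3, Prelp (brighter) at 78.9 in medulla of control CCI 4, and Ogn (dimmer) at 32.5 in medulla of KO CCI 1 and at 78.1 in midbrain of KO CCI 3. The medulla of KO CCI 1 was also the one with a Ttr level of 1485.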

How the results depend on the processing

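The count of 8 probe sets that differed between regions ranged from 4 to 10 over 46 settings. It was 4 within array code A and 7 within code B, 8 with the title number as a replicate block and 10 with the mouse as a random replicate block. The share of all probe sets called in these settings is not given beside these counts. The count stayed at 0 for genotype, CCI and their interactions in each setting run, the replicate block included. For the correlations, leaving out arrays, removing the code in the relation between regions and all settings of the relations with choroid plexus and other meningeal genes were chosen after seeing the data. The number of co-varying pairs in medulla, 18 over all arrays, was 5 without control sham 4 and KO CCI 1, and 6 to 22 when 1 array was left out. In midbrain it was 3, and 3 to 9 when 1 array was left out. It was 9 without KO sham midbrain 2, 8 without KO sham midbrain 3 and 6 without control sham midbrain 3. For the correlations, counts within a code are not given, because deviations there mirror each other and the permutation test treats arrays as independent. Against choroid plexus genes, 6 genes passed in medulla, 3 without control sham 4 and KO CCI 1, and 0 passed in midbrain. Against other meningeal genes it was 7 in medulla and 6 in midbrain, and 3 and 4 without those 2 mice. The inverse relation of Ptgds between regions was 1 of 10 genes, and 0 with the code removed. The cause of these shifts was not tested beyond the smaller number of arrays. With 4 arrays a group, intervals of the least steady genes span more than 1 log2 unit.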
